A study of Mus musculus with 4 samples.

Results

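The genes described here encode proteins of the blood plasma, most of which the liver secretes, together with the apolipoproteins that carry lipids. They were taken from the array annotation as every probe set with 1 gene symbol that begins with Apoa, Apob, Apoc, Apoe, Apoh, Apom, Serpina, Serpinc, Serpinf, Itih or Ahsg, or that is one of 17 further names such as Alb, Afp, Fga, Hpx, Clu and Vtn. This gave 86 of 45037 probe sets and 55 of 18193 genes. Of the further names, 2 (Trf and Gc) had no probe set with a single symbol and were not analysed here. Hippocampi of mouse pups were dissected at postnatal day 2 and their total RNA was hybridised to 4 Affymetrix arrays. The 2 control arrays held tissue labelled wildtype, from littermates, and the 2 others tissue labelled ZBTB20 knockout. The arrays are called control 1, control 2, knockout 1 and knockout 2 here, by their replicate numbers. No Cre driver, floxed allele or strain is named, nor whether animals were pooled for an array, so p-values measure only the spread between these arrays, which may be partly technical.

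Plasma proteins are made mainly by hepatocytes under liver-enriched transcription factors such as HNF1, HNF4 and the C/EBP family. Lipoproteins are particles of lipid and apolipoprotein that deliver cholesterol and triglyceride to cells through receptors of the LDL receptor family. The brain lies behind a barrier that plasma lipoproteins do not cross freely and makes its own particles, in which apolipoprotein E and clusterin, secreted largely by astrocytes, are the main proteins. ZBTB20 is a zinc finger repressor of the BTB family that is known, apart from its role in hippocampal neurons, for silencing the alpha-fetoprotein gene (Afp) in the liver after birth.

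The arrays with the same replicate number shared a scale. The trimmed mean signal was 498 in control 1, 497 in knockout 1, 158 in control 2 and 156 in knockout 2, and the Spearman correlation over probe sets was 0.926 and 0.986 within a replicate number and 0.818 to 0.832 between them. Differences are therefore given within pair 1 (replicate 1) and pair 2 (replicate 2), as knockout minus control in log2(signal + 32.56), with no p-value since each pair sets 1 array against 1 array. Each gene is shown by its probe set of highest mean. Of the 9 probe sets of Zbtb20, 3 were lower in the knockout array in pair 1 and 2 in pair 2, and 0 in both. Their place relative to the deleted part is unknown here, so they do not check the labels. The 13 measured genes listed for hippocampal neurons had a median percentile between 95.3 and 98.4 on the 4 arrays, and 10 to 12 of them were bright on an array, but most are shared with other forebrain neurons and do not by themselves mark hippocampus. Prox1, a granule cell gene, lay at percentiles 59.97, 65.95, 80.4 and 81.3 (control and knockout of replicate 1, then of replicate 2), and Slc17a7, a vesicular glutamate transporter, was bright on no array. Neurod6, a transcription factor of pyramidal neurons, was at 6997 in control 1 and 7349 in knockout 1, against 1498 in control 2 and 1745 in knockout 2.

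A probe set was called bright on an array where its signal was at or above that array's 75th percentile (553 in control 1, 552.2 in knockout 1, 171.9 in control 2 and 174.4 in knockout 2). Of the 55 genes, 2 were bright on all 4 arrays, 7 on both replicate 1 arrays only, 12 on control 1 only, 1 on all but knockout 1, and 33 on none. Over all 18193 genes, 29.4% were bright on all 4 arrays. These classes sort the genes by their signals and are a description. The 12 genes bright on the control array alone had to be lower on knockout 1 to enter that class. Just inside the control threshold of replicate 1 were Serpinc1 (581) and Itih4 (598.0), and just outside it Apoc4 (501) and Cp (475). On knockout 1, Serpinf1 (666) was just inside and Fgg (527) and Apoc1 (483) just outside. On the replicate 2 arrays Apoc1 (192 and 200.2) was just inside and Vtn (147 and 132) just outside.

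**Figure D1:**
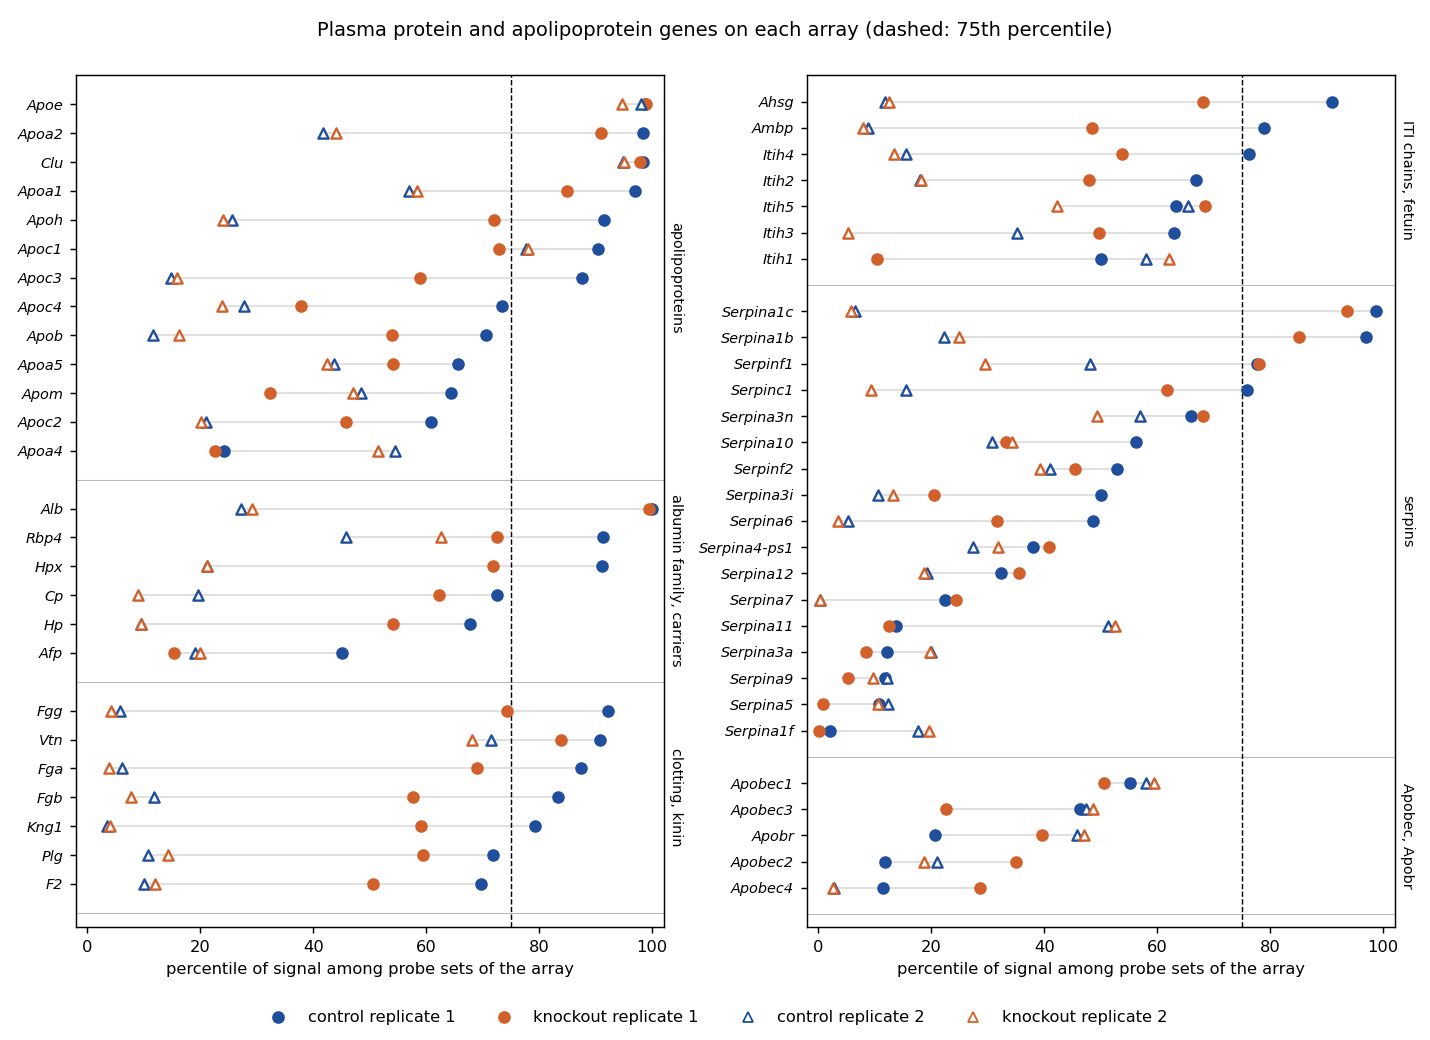
Percentile of the signal of each of the 55 genes among all probe sets of an array (x axis) for the 4 arrays, with genes grouped by role and ordered by control 1 (circles, replicate 1; triangles, replicate 2; blue, control; orange, knockout; dashed line, 75th percentile). Apoe and Clu lie right of the line on all 4 arrays, while Alb, Fgg and Serpina1c are high on the replicate 1 arrays and at or below the 30th percentile on the replicate 2 arrays.

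The start regions of 4 genes are shown because their signals followed different patterns. Albumin (Alb), the main carrier protein of plasma, was bright on both replicate 1 arrays only, and Fgb, the fibrinogen beta chain, on control 1 only. Afp is the textbook target of ZBTB20, and Apoe was bright on all arrays. Each window runs from 250 bases before to 50 bases after an annotated start, from RefSeq on GRCm38.p6, printed 5′ to 3′ along the strand of the gene. Capitals mark matches to an HNF1 half-site (GTTAAT or GTTAAC, on either strand; the second reads alike on both) and to a C/EBP sequence (TTGCNNAA, on either strand).
Alb, chr5:90460620-90460919, plus strand: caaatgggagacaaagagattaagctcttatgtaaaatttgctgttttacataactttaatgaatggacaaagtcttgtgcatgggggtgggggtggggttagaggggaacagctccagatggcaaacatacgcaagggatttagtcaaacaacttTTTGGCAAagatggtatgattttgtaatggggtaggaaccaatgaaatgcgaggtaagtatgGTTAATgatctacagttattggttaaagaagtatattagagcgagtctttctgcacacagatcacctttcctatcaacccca
Fgb, chr3:83049814-83050113, minus strand: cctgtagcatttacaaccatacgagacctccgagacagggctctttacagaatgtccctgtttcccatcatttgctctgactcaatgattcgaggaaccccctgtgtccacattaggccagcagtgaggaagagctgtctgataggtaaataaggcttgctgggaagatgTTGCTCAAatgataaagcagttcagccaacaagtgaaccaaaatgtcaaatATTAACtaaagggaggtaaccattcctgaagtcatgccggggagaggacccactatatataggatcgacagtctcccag
Afp, chr5:90490464-90490763, plus strand: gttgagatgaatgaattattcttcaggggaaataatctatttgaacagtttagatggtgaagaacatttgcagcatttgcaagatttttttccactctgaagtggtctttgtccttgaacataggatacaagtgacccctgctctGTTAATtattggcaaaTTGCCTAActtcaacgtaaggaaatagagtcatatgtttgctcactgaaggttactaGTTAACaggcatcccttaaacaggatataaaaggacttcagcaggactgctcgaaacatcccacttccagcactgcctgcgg
Apoe, chr7:19699139-19699438, minus strand: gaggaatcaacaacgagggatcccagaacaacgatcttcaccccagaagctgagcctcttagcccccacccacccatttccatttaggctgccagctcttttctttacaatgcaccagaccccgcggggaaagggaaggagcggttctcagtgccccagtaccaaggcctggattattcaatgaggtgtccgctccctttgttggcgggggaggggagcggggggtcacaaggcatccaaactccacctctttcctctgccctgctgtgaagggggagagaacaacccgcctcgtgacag

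With the annotated start counted as position 0, the half-site began at -32 in Alb, at -29 in Fgb and at -105 and -32 in Afp, and the C/EBP match at -94, -80 and -89. The Apoe window printed, that of its outermost start, held no match, but the window of another annotated start of Apoe held a half-site at -172. Of the 55 genes, 45 had a window in the table, and 14 of these held an HNF1 half-site, against 11.3% of all 27025 genes with a window. The C/EBP sequence was found in 17 of 45, against 12.2% of all genes. Among the 17 genes with a window that were bright on replicate 1 arrays only (both or control alone), 7 held the half-site and 9 the C/EBP sequence, and among the 27 genes bright on no array 6 and 8 did. A gene with several windows was counted when any of them held the letters. A match is a run of letters and not a shown binding site.

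Apoe, the main apolipoprotein of the brain, was bright on every array. Its signal was 8874 in control 1, 9692 in knockout 1, 1555 in control 2 and 729 in knockout 2. The knockout over control ratio was 1.09 in pair 1 and 0.469 in pair 2, so both replicate 1 arrays were alike while knockout 2 was less than 50% of its control. On the log2(signal + 32.56) scale Apoe was 1 of 55 genes over 2-fold lower in pair 2, against 0.291% of all genes. This count depends on the scale: without the pseudocount Itih3 also passed 2-fold (-1.39), and with quantile normalization Itih3 (-1.03) and Itih5 (-1.19) did. Over all 4 arrays its log2 difference was -0.47 ± 1.90 (SE, n = 2 per group), and the arrays of the groups overlapped. In the same pair 11 of 12 measured genes of astrocytes and radial glia were lower in the knockout array, with a median of -0.34, and 8 of 10 of microglia, with a median of -0.15. The summed signal of the astrocyte list was 55431 and 18290 on the control and 55733 and 15384 on the knockout arrays (replicates 1 and 2), and that of the microglia list was 5068 and 1685 on the control and 4791 and 1396 on the knockout arrays. Fabp7, a radial glia marker, was at 0.025 in pair 1 and -0.018 in pair 2, and Aqp4, a water channel of astrocytes, at 1.46 in pair 1 and -1.42 in pair 2. None of these list genes had a signal of 0. Their part in the Apoe value was not tested. In bulk tissue, fewer cells of a type and less RNA per cell cannot be told apart.

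Clu, which encodes the extracellular chaperone clusterin (apolipoprotein J), was the other gene bright on all arrays. It had signals of 7649 in control 1, 6108 in knockout 1, 777 in control 2 and 766 in knockout 2. Knockout over control, the ratio was 0.798 for replicate 1 and 0.986 for replicate 2, and the 4 probe sets of the gene differed by -0.47 to -0.26 in pair 1 and by -0.081 to -0.0092 in pair 2. All 4 thus pointed the same way in both pairs, by small amounts, but they measure the same gene on the same arrays. With quantile normalization Clu was at 0.053 in pair 2, so its direction there depends on the processing. The log2 difference over all arrays was -0.17 ± 1.85 (SE, n = 2 per group).

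Apoc1, an inhibitor of lipoprotein uptake encoded next to Apoe, fell between the classes. Its signal was 1690.3 in control 1, 483 in knockout 1, 192 in control 2 and 200.2 in knockout 2, which put it at percentiles 90.4, 72.8, 77.6 and 77.96 (control and knockout of replicate 1, then of replicate 2). It was thus bright on both replicate 2 arrays, where the ratio was 1.04, and on control 1, where the knockout array had 0.286 of the control signal.

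The other apolipoprotein genes were high on replicate 1 arrays or dim throughout. Apoa1 and Apoa2, the structural proteins of high-density lipoprotein, were bright on both replicate 1 arrays only. Apoa1 had signals of 4618 in control 1, 1060 in knockout 1, 90.3 in control 2 and 96.1 in knockout 2. Apoa2 gave 7658 in control 1 and 1804 in knockout 1, against 59.8 in control 2 and 65.05 in knockout 2. In both genes knockout 1 was far below its control (ratios 0.23 and 0.236). On the replicate 2 arrays, where neither gene was bright, the ratios were 1.06 and 1.09. All 4 probe sets of Apoa1 were over 2-fold lower in pair 1, from -1.98 to -2.33, and between -0.041 and 0.067 in pair 2.

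Apoh (beta-2-glycoprotein I, which binds anionic phospholipid) and Apoc3 (an inhibitor of lipoprotein lipase) were bright on control 1 alone. The signals of Apoh were 1889.8 in control 1 and 457 in knockout 1, against 40.5 in control 2 and 39.5 in knockout 2. Apoc3 showed 1296 in control 1 and 212 in knockout 1, against 30.2 in control 2 and 31.4 in knockout 2. A second probe set of Apoh was bright on no array, at 7.5 and 13.6 in control 1 and knockout 1, so the 2 probe sets of this gene disagreed. The other 6 genes were bright nowhere, and their pair 1 differences spanned a wide range, from -2.41 for Apoc4 to -0.21 for Apoa4. Between these lay Apom, a carrier of sphingosine 1-phosphate, at -1.98, Apob, the backbone of very-low-density lipoprotein, at -1.26, Apoc2, the activator of lipoprotein lipase, at -1.06, and Apoa5 at -0.86. In pair 2 these 6 genes lay between -0.067 and 0.11.

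Among the carriers of plasma, Alb showed the widest gap between replicate numbers. Its signal was 39309 in control 1, 15195 in knockout 1, 42.2 in control 2 and 45.2 in knockout 2. On the replicate 2 arrays it lay at percentiles 27.3 and 29.1, where most probe sets are dim, and on the replicate 1 arrays at 99.9 and 99.3. The knockout array of replicate 1 had 0.387 of the control signal, and the replicate 2 ratio was 1.07. The 55 genes, over all their probe sets, held 0.408% of the total signal in control 1, 0.179% in knockout 1, 0.0800% in control 2 and 0.0721% in knockout 2.

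Hpx (hemopexin, which binds haem) and Rbp4 (the retinol carrier) were bright on control 1 only. Hpx had signals of 1789 in control 1 and 455 in knockout 1, against 36.2 in control 2 and 36.8 in knockout 2, and its replicate 2 ratio was 1.02. Rbp4 was at 1830.1 in control 1 and 473 in knockout 1, against 66.3 in control 2 and 110.1 in knockout 2. It was the member with the largest positive difference in pair 2, at 0.53, against -1.88 in pair 1. The choroid plexus, whose genes are known to include Rbp4, had 7 of its 9 listed genes higher in the knockout array of pair 2, with a median of 0.38. In pair 1, where Rbp4 was lower, 7 of 9 were also higher, with a median of 0.85. The summed signal of that list was 1521 and 602 on the control and 2422 and 751 on the knockout arrays, with Kl at 6.6 and Slc4a5 at 4.2 in control 1. Their part in the Rbp4 value was not tested.

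The other carriers were bright on no array. Cp, the copper-binding ferroxidase ceruloplasmin, had 8 probe sets whose pair 1 differences ran from -0.95 to 0.64, and its brightest gave 475, 257, 34.7 and 24.2 (control and knockout of replicate 1, then of replicate 2). Hp (haptoglobin, which binds free haemoglobin) was at 360.4 in control 1 and 162 in knockout 1, against 24.7 in control 2 and 24.9 in knockout 2. Afp, the fetal relative of albumin, was dim on all 4 arrays. Its probe set of highest mean had 112 in control 1 and 13.7 in knockout 1, against 34.1 in control 2 and 35.7 in knockout 2, and its 5 probe sets had at most 112 on control 1. Only 1 of the 5 was over 2-fold lower in pair 1, and in pair 2 all lay between -0.026 and 0.068. No probe set of Afp was thus bright in a knockout array.

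The 3 fibrinogen chains, which form the clot, gave like values. Fga had signals of 1285 in control 1 and 382 in knockout 1, against 20.6 in control 2 and 16.96 in knockout 2. Fgb was at 942 in control 1 and 197 in knockout 1, against 27.03 in control 2 and 22.9 in knockout 2, and Fgg at 2017 in control 1 and 527 in knockout 1, against 19.9 in control 2 and 17.7 in knockout 2. On replicate 1 arrays the knockout over control ratios were 0.297, 0.209 and 0.261. On replicate 2 arrays all 3 lay at or below the 11.7 percentile, and the ratios were 0.823, 0.847 and 0.885. Fgb had a log2 difference of -1.09 ± 0.88 over all arrays (SE, n = 2 per group).

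Kng1, the precursor of bradykinin, was bright on control 1, at 718 in control 1 and 214 in knockout 1, against 16.1 in control 2 and 17.6 in knockout 2, and its second probe set was bright on none. Prothrombin (F2) and plasminogen (Plg) were bright on no array, with signals of 402, 134, 25.3 and 27.5 and of 458, 217, 26.1 and 29.9. Their pair 1 differences were -1.38 and -0.98, and their pair 2 differences 0.053 and 0.091. Vitronectin (Vtn), a cell adhesion protein that brain pericytes are also known to make, differed from these genes. It had 1731 in control 1, 982 in knockout 1, 147 in control 2 and 132 in knockout 2, which left it just under the threshold in replicate 2, with a ratio of 0.567 within pair 1 and of 0.901 within pair 2. Both of its probe sets were lower in both pairs, at -0.80 and -0.62 in pair 1 and at -0.12 and -0.10 in pair 2. Of 11 listed genes of endothelium and pericytes, 8 were lower in pair 1 (median -0.31) and 6 in pair 2 (median -0.0021). Their summed signal was 8985 and 2382 on the control and 8516 and 2534 on the knockout arrays, and their part in the Vtn value was not tested.

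Ahsg (fetuin-A, an inhibitor of calcification) and Ambp (the precursor of alpha-1-microglobulin and of bikunin, the light chain of inter-alpha-trypsin inhibitor) followed the pattern of fibrinogen. Ahsg had 1757 in control 1 and 364 in knockout 1, against 27.1 in control 2 and 28.1 in knockout 2. Ambp had 702 in control 1 and 119 in knockout 1, against 23.97 in control 2 and 23.1 in knockout 2, with a log2 difference of -1.15 ± 0.76 over all arrays (SE, n = 2 per group). The Itih genes, which form the heavy chain family of the inhibitor, did not all behave alike. Itih4 and Itih2 were over 2-fold lower in pair 1 and near 0 in pair 2, at -1.72 and -0.037 and at -1.35 and 0.016 in pairs 1 and 2. Itih1 lay at percentiles 50.1, 10.4, 57.9 and 62.1 (control and knockout of replicate 1, then of replicate 2), low in knockout 1 alone. Its log2 difference over all arrays was -0.98 ± 0.60 (SE, n = 2 per group).

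Itih3 and Itih5 were the heavy chains that differed in pair 2. Itih3 had 276 in control 1, 127 in knockout 1, 51.02 in control 2 and 19.5 in knockout 2, which made it lower in both pairs, at -0.95 in pair 1 and -0.68 in pair 2. Itih5 had 281 in control 1, 369 in knockout 1, 118 in control 2 and 62.2 in knockout 2, and was at 0.36 in pair 1 and -0.66 in pair 2. For Itih5 the direction thus turned between the pairs, and its other 2 probe sets, both dimmer, were at 0.76 and -0.32 in pair 1 and at -0.15 and -0.19 in pair 2.

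The serpins are inhibitors of serine proteases, with some members that carry hormones. Serpina1b and Serpina1c, which encode alpha-1-antitrypsin, are near-identical copies, so their probe sets may share transcripts and their values are uncertain as to the copy. Serpina1c had 9165 in control 1, 2485 in knockout 1, 21.1 in control 2 and 20.1 in knockout 2. Serpina1b gave 4621 in control 1 and 1073 in knockout 1, against 37.2 in control 2 and 40.6 in knockout 2. In pair 1 the ratios were 0.271 and 0.232, while in pair 2 they were 0.952 and 1.09. Serpinc1 (antithrombin) was bright on control 1, at 581 in control 1 and 248 in knockout 1, against 30.7 in control 2 and 24.6 in knockout 2.

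Serpinf1, which encodes pigment epithelium-derived factor, was bright on both replicate 1 arrays at like signals. It had 652 in control 1, 666 in knockout 1, 70.1 in control 2 and 45.6 in knockout 2, with ratios of 1.02 and 0.651. Its other probe set, bright nowhere, was at 1.28 in pair 1 and -0.037 in pair 2. Serpina3n, a serpin known from reactive astrocytes, was also alike in replicate 1, at 326 in control 1 and 363 in knockout 1, against 90.2 in control 2 and 74.3 in knockout 2. Of 11 meningeal genes, 8 were lower in pair 1 (median -0.13) and 7 in pair 2 (median -0.18), with a summed signal of 14213 and 1612 on the control and 12132 and 1800 on the knockout arrays. Their part in the Serpinf1 value was not tested.

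The remaining 12 serpin genes were bright on no array. Serpinf2 (alpha-2-antiplasmin) and Serpina10 (an inhibitor of factor X) were at -0.56 and -0.019 and at -1.39 and 0.091 in pairs 1 and 2. Serpina6 and Serpina7 encode the plasma carriers of corticosteroid and of thyroid hormone. Serpina6 gave 132, 50.3, 19.3 and 16.5, and Serpina7 34.4, 33.2, 4.48 and 4.59, in the order control and knockout of replicate 1, then of replicate 2. Serpina3i was at -1.61 and 0.073. The other 7 (Serpina4-ps1, Serpina12, Serpina11, Serpina3a, Serpina9, Serpina5 and Serpina1f) had signals of at most 81.5 on any array and differed by at most 0.36 in pair 1.

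The prefixes of the rule also took 5 genes that encode no plasma protein. These were 4 Apobec genes, which encode cytidine deaminases, the first of which (Apobec1) edits the Apob transcript, and Apobr, a receptor for lipoproteins that hold apolipoprotein B. Apobec1 had 184 in control 1 and 134 in knockout 1, against 92.8 in control 2 and 99.3 in knockout 2. All 5 were bright on no array. On the log2(signal + 32.56) scale 1 gene of the 55, Apobec2, was over 2-fold higher in knockout 1, at 1.03, on dim signals of 12.3 in control 1 and 59 in knockout 1. The second probe set of Apobec2 was at 0.054 in pair 1, with 14.7 in control 1 and 16.5 in knockout 1. The signal ratios of Apobec4 (3.64) and Apobr (2.55) were also above 2, so that 3 genes passed without the pseudocount, and 0 did with quantile normalization.

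Across the 4 arrays, no member gene was called different between knockout and control. Of the 55 genes, 40 passed the filter on dim probe sets. The limma fit called 0 of these, and 0 of all 12581 genes (0%), at an adjusted p of 0.05, and none of the 12581 reached an unadjusted p of 0.05 (0 genes). The limma fit blocked on replicate number again called 0 members and 0 genes (0%), with 6 members and 146 genes under an unadjusted p of 0.05. The 5 members with the smallest unadjusted p in the limma fit were Apoc4 at -1.24 ± 0.73, Itih1, Ambp, Apom at -0.997 ± 0.73, and Fgb (log2, SE, n = 2 per group), all with an adjusted p of 1. These SE come from the trend of spread on brightness over all genes, and they hold the difference between the scales. The fit without the block could therefore detect only very large differences. In the blocked limma fit the smallest unadjusted p of a member was that of Itih3 (0.0316, adjusted p = 0.9999), which was lower in both pairs. Both knockout signals lay below both control signals for 1 member, Apom, at 300.5, 51.7, 70.8 and 70.04 (control and knockout of replicate 1, then of replicate 2), against 4.03% of all genes, and above both for 1, Apobr, at 29.3, 74.8, 66.3 and 70.3, against 3.64%.

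Within pair 1, 48 of the 55 genes were lower in the knockout array, against 54.1% of all genes. Over 2-fold lower were 30 of 55, against 6.02% of all genes, and over 2-fold higher 1 of 55, against 3%. The median was -1.13, against -0.038 over all genes. Of the 22 members bright on control 1, 18 were over 2-fold lower, against 1.04% of all 6736 genes that bright. The 4 others were Apoe, Clu, Vtn and Serpinf1. In pair 2, 26 of 55 were lower, against 48.4% of all genes, 1 was over 2-fold lower and 0 over 2-fold higher (0.176% of all genes), and the median was 0.0013. Of the 55, 21 were lower in both pairs, 1 was higher in both and 32 were of opposite sign, and the last, Apobec4, was at 0 in pair 2. Over all 18193 genes, 4489 were lower in both pairs, 4037 higher in both and 9641 of opposite sign. The pair 1 values were known when these genes were chosen and are given as a description.

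**Figure D2:**
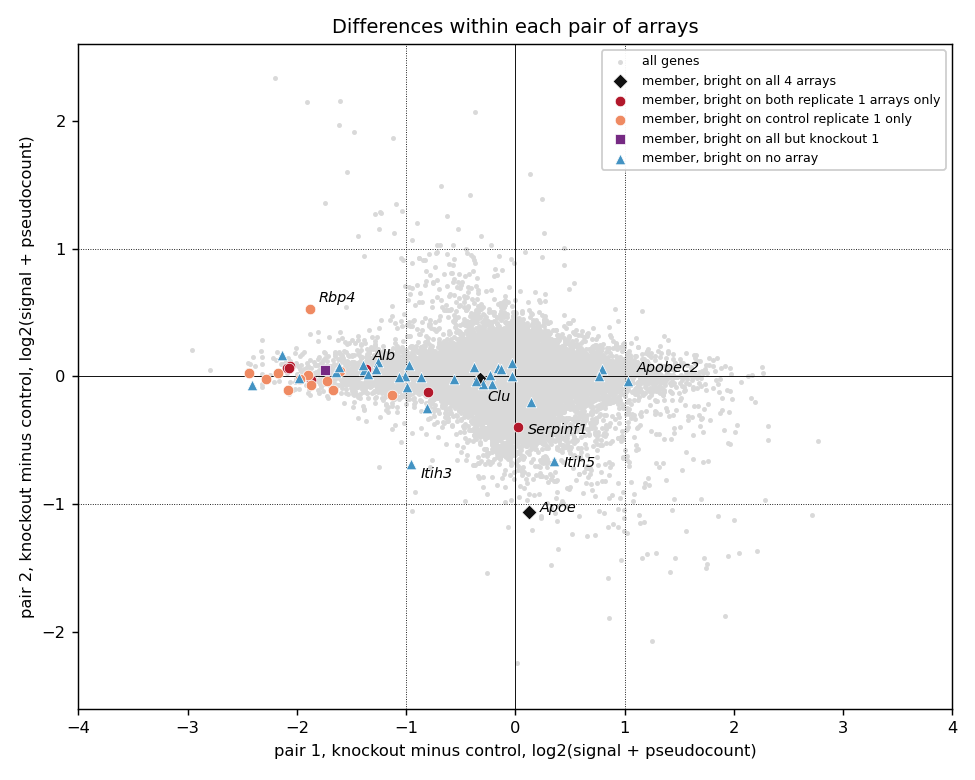
Knockout minus control in log2(signal + pseudocount) within pair 1 (x axis) and pair 2 (y axis), for all 18193 genes (grey) and the 55 members (coloured by brightness class; dotted lines mark 2-fold). Most members spread to the left along the x axis with pair 2 values near 0, while Apoe lies below -1 in pair 2 and near 0 in pair 1.

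The 19 members bright on control 1 and dim on both replicate 2 arrays were mostly lower in knockout 1. Their knockout over control ratio had a median of 0.259 and ran from 0.164 (Apoc3) to 1.02 (Serpinf1), with 17 of 19 below 0.5. In pair 2 the same genes had a median ratio of 0.976, from 0.651 to 1.66. Their median percentile was 90.9 and 71.9 on the control and knockout arrays of replicate 1 and 15.5 and 15.8 on those of replicate 2. The 20th percentile signal of control 2 and knockout 2 was 35 and 35.7, so most of these genes were very dim there. At such signals a ratio near 1 does not show that knockout and control were alike. Vtn and Serpinf1 were the 2 genes with ratios above 0.5. The 19 genes were picked by a high signal on control 1, the denominator of the pair 1 ratio, which favours low ratios. Of them, 12 had to be lower on knockout 1 to enter their brightness class. The share of low ratios among all genes picked by the same rule was not computed. Of all 6736 genes bright on control 1, whatever their replicate 2 signals, 1.04% were over 2-fold lower in pair 1 on the scale with the pseudocount.

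Enzyme and transporter genes of hepatocytes, which encode no plasma proteins, were also lower in knockout 1. All 20 measured enzymes and transporters of hepatocytes were lower in the knockout array in pair 1 (median -1.47), and 17 were over 2-fold lower. In pair 2, 7 of 20 were lower and the median was 0.039, but 0 of them were bright on either replicate 2 array. Their median percentile was 67.3 and 45.2 on the control and knockout arrays of replicate 1 and 17.4 and 15.4 on those of replicate 2, and their summed signal was 17308 and 761 on the control and 5541 and 804 on the knockout arrays (replicates 1 and 2). Cyp3a11, a cytochrome P450 of drug metabolism, had 4314 in control 1 and 1479.6 in knockout 1, against 18.7 in control 2 and 17.5 in knockout 2. Fabp1, the liver fatty acid binding protein, had 2508 in control 1 and 685 in knockout 1, against 30.3 in control 2 and 29.2 in knockout 2. The 8 of these genes that were bright on control 1 had a median ratio of 0.335 in pair 1 (0.252 to 0.478). The 13 neuronal genes had a median ratio of 1.16 in pair 1 (0.795 to 2.21) and 1.11 in pair 2 (0.652 to 2.00). The part of RNA from hepatocytes in the pair 1 values of the plasma protein genes was not tested.

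**Figure D3:**
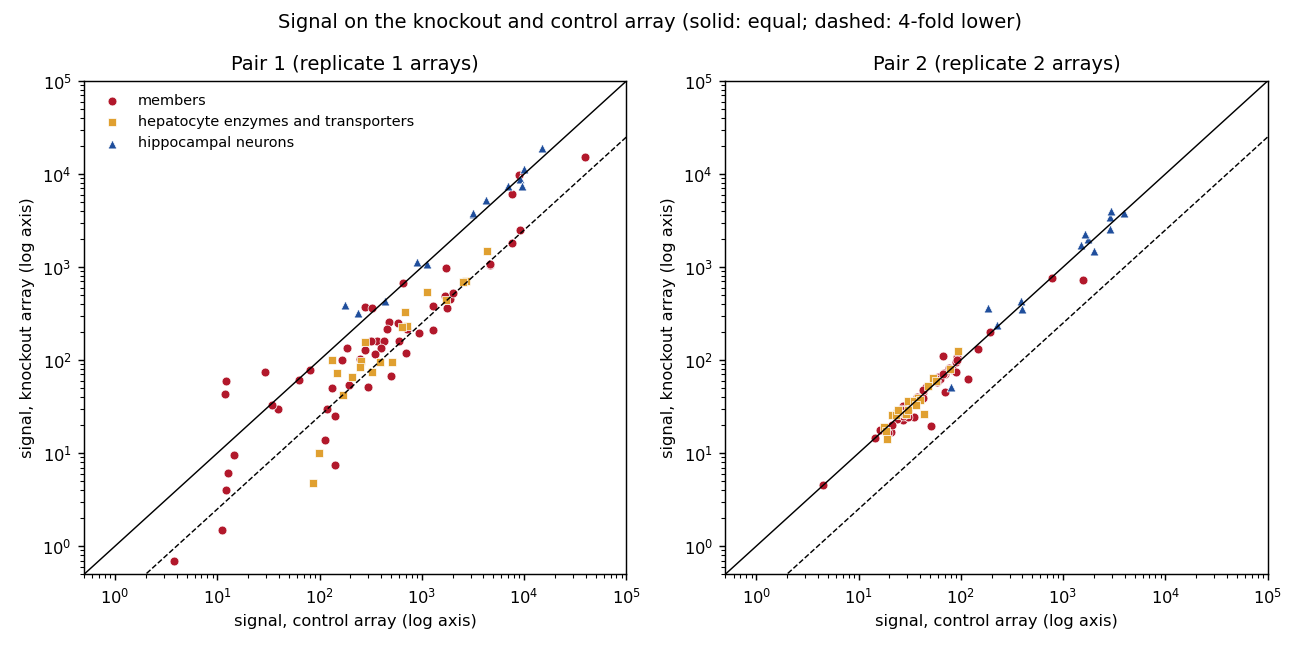
Signal on the control array (x axis, log scale) against the knockout array (y axis, log scale) for pair 1 (left) and pair 2 (right), for the 55 members (red circles), 20 hepatocyte enzymes and transporters (yellow squares) and 13 neuronal genes (blue triangles). In pair 1 most members with control signals over 553 lie near the dashed line of 4-fold lower signal. The 8 hepatocyte genes that bright lie between the dashed and the solid line, at ratios of 0.252 to 0.478 (median 0.335). The neuronal genes lie around the solid line of equal signal in pair 1, at ratios of 0.795 to 2.21. In pair 2 most genes of the 3 sets lie near the solid line. Itih3 (ratio 0.382), Apoe (0.469) and Itih5 (0.529) lie below it there, and Rbp4 (1.66) and the neuronal gene Tbr1 (2.0) above it.

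Other lists of the pathway were read on the same arrays. Of 25 further genes of coagulation, complement and plasma, 9 were over 2-fold lower and 0 over 2-fold higher in pair 1 (median -0.67), among them Mbl2, a lectin of complement, at -1.37 in pair 1 and -0.027 in pair 2 and Igfbp1 at -1.75 in pair 1 and 0.19 in pair 2. In pair 1, 19 of the 25 were lower, and those higher included Saa1 (0.47), Mst1 (0.37) and C6 (0.28). Transthyretin (Ttr), a thyroid hormone carrier that the choroid plexus also makes, was bright on all 4 arrays and at 0.24 in pair 1. Its signals of 62551 in control 1 and 74106 in knockout 1 were the highest on those arrays. Ttr was the 1 gene of this list over 2-fold higher in pair 2, at 1.39, with 3505 in control 2 and 9232 in knockout 2. Of 12 liver transcription factors 9 were lower in pair 1 (median -0.33), 2 of them over 2-fold, and 1 was over 2-fold higher, while 0 were bright on any array. Creb3l3 was at -2.24 in pair 1 and 0.013 in pair 2 and Hnf4a at -0.71 in pair 1 and 0.14 in pair 2. The 3 factors higher in pair 1 were Nr5a2 at 1.23, Onecut1 at 0.87 and Zhx2 at 0.68. The 10 measured erythroid genes, which fetal liver also holds, had 0 bright on any array, a median of -0.37 in pair 1 and a summed signal of 783 and 667 on the control and 483 and 661 on the knockout arrays.

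Most measured genes of the list of lipoprotein receptors, lipid transfer and remodelling were bright. Of 22 listed genes, 17 were measured. Of these 17, 11 were bright in control 1 and in knockout 1, and 10 in control 2 and in knockout 2. Over all 18193 genes, 6736 were bright in control 1. Of the 17, 6 were lower in pair 1 and 8 in pair 2. Lrp8, a receptor of apolipoprotein E and reelin, was at 0.35 in pair 1 and -0.18 in pair 2, and Lpl (lipoprotein lipase) at 1.73 in pair 1 and -1.42 in pair 2. Of 21 receptors and partners of plasma proteins, 15 were lower in pair 1 (median -0.28) and 10 in pair 2 (median 0.015), with the transferrin receptor gene Tfrc at 0.15 in pair 1 and -0.10 in pair 2. The limma fits called 0 genes of the 127 list genes tested, with and without the block.

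**Figure D4:**
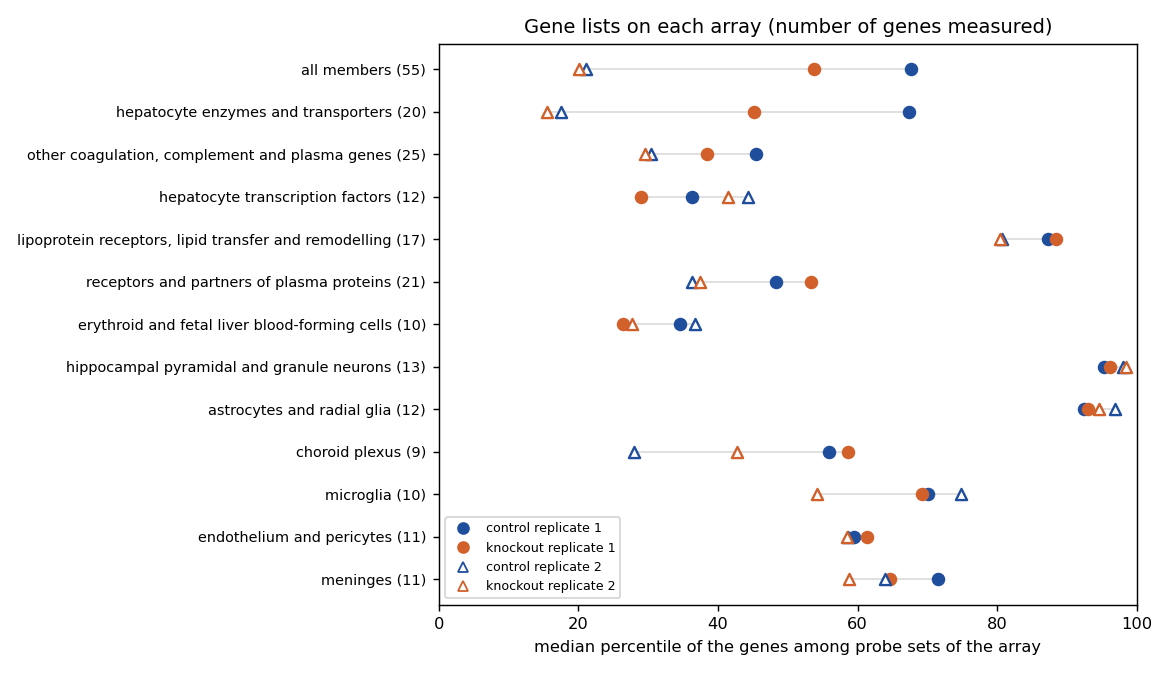
Median percentile of the genes of each list among all probe sets of an array (x axis), by array (circles, replicate 1; triangles, replicate 2; blue, control; orange, knockout), with the number of genes measured in brackets. The members and the hepatocyte enzymes differ most between replicate numbers, at 67.7 and 67.3 on control 1 and 21.0 and 17.4 on control 2, while neurons and astrocytes lie above 90 on all arrays.

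Many of these genes lie side by side in the genome. In the RefSeq annotation, 34 of them had another member within 10 protein-coding genes, in 9 clusters. Apoe, Apoc1, Apoc4 and Apoc2 are consecutive, and their percentiles on control 2 were 97.9, 77.6, 27.7 and 21.0. In the cluster of Apoa1, Apoc3, Apoa4 and Apoa5 the percentiles on control 1 were 97.0, 87.6, 24.2 and 65.6, so Apoa4, a product mainly of the intestine, and Apoa5 were not bright beside the bright Apoa1 and Apoc3. Alb and Afp, also adjacent, were at 99.9 and 45.1 on that array. Of the 12 serpins in 1 cluster, Serpina1b and Serpina1c were bright on both replicate 1 arrays and the other 10 on no array. Members of a cluster therefore did not share 1 brightness class, except the 3 adjacent fibrinogen genes, the pair Ahsg and Kng1, and the pair Itih2 and Itih5, both bright on no array.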

How the data were processed

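MAS5, named in the submitters' processing notes with no version, produced the deposited signal intensities, which are linear; scaling and background settings are not given in the sources used here. The number of arrays (4) limits the precision. The genes and lists were chosen with earlier results of these data known. The platform annotation gave 1 symbol to 34945 probe sets, several to 932 and none to 9160, and only the first kind was named. Signals were taken as log2(signal + 32.56), the pseudocount being the 20th percentile of all values, so differences of dim genes are understated. limma 3.58.1 in R 4.3.3 (lmFit, eBayes with trend, Benjamini-Hochberg adjustment) compared knockout with control over 12581 genes, with no covariate, after leaving out probe sets whose mean lay at or below the 40th percentile; a gene was its remaining probe set of highest mean. Levels, pair differences and list counts used all 18193 genes, unfiltered. The code was tested on simulated data, in which calls of changed genes were required only of the blocked fit. Named genes were those bright on all arrays, the 6 brightest of each role in control 1, the 5 of smallest p in a direction, those with probe sets of different class and, of each list, up to 4 of smallest p and of highest mean; the others were named after their values were seen. Same-numbered arrays deviated alike from their group means (correlation 0.826 across genes), which with 2 pairs does not show that the numbers pair animals. Promoter windows came from RefSeq (GRCm38.p6).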

Additional observations from a re-analysis of the deposited data

How the results depend on the processing

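The count of 0 called genes and of 0 called members held under each alternative of the limma fit: the replicate block (0 and 0), quantile normalization, centring on the 75th percentile, 2 other pseudocounts, no filter or a stricter one, averaged probe sets per gene, eBayes without trend, and leaving out each array (0 to 0; the lone array of a group is then assumed to vary like the others). Without the block, the difference in scale between replicate numbers enters the spread, with an SE for Apoe of 1.90 against 0.27 with the block. That fit could thus detect only very large differences, and its 0 calls say little about the genes. The design also has few residual degrees of freedom (2 without and 1 with the block). Misses of either fit do not show that the genes were alike. Without control replicate 1, 5 of the 7 named differences turned sign, and those of Apoe and Clu also did without knockout replicate 2; the scales then no longer balance. Over the arrays left out, Apoe ran from -2.30 to 1.37, Clu from -1.79 to 1.45, Apoc4 from -2.65 to 0.18, Ambp from -3.001 to 0.70 and Fgb from -3.11 to 0.92. Itih1 (-1.89 to -0.075) and Apom (-1.84 to -0.15) kept their sign but moved by over 1.5 times, Itih1 being nearest 0 without knockout replicate 1 and Apom without control replicate 1. None was called. The count of 30 members over 2-fold lower in pair 1 ranged from 25 (quantile normalization) to 37 (no pseudocount, floor of 1), and the direction changed only for small values, under quantile normalization for 3 members in pair 1 (up to 0.027) and 6 in pair 2 (up to 0.020), and under centring for 7 in pair 2 (up to 0.016). The 1 member over 2-fold higher in pair 1 became 0 (quantile normalization, pseudocount at the 40th percentile) or 3 (no pseudocount). Members over 2-fold apart in pair 2 numbered 3 with quantile normalization (Apoe, Itih3 and Itih5) and 2 with no pseudocount (Apoe and Itih3). The brightness classes depended on the threshold: from the median, 6 genes were bright on all 4 arrays (Apoe, Clu, Apoa1, Apoc1, Vtn and Apobec1) and 21 on both replicate 1 arrays only, and from the 90th percentile 2 and 3. Classing a gene by any of its probe sets left 2 bright on all 4 arrays.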
